A study of Mus musculus with 16 samples.

Results

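Chemokines, interleukins, colony-stimulating factors, members of the tumour necrosis factor (TNF) family and the receptors of all of these were followed in mouse liver and quadriceps. They were chosen by gene symbol alone (Ccl, Cxcl, Cx3cl, Il, Csf, Tnf and Tnfsf for ligands, with the matching receptor names), which picked 84 of the 13701 genes in the count table, among them 32 ligands, 46 receptors and 6 soluble antagonists or decoys. Total RNA was sequenced on the Ion Torrent platform from 16 libraries of bulk tissue of male C57BL6/J mice aged 12 to 14 weeks, collected on day 7 after an adeno-associated virus (AAV). The 4 groups, each with 4 libraries, were livers and quadriceps labelled AAV-DJ8-TGB-Yap1S5A and livers and quadriceps labelled AAV-DJ8-TGB-EGFP, so controls also carried a virus, with green fluorescent protein (GFP) as its cargo. Yap1S5A is a form of the transcriptional coactivator Yap1 whose serines targeted by the Hippo kinases are changed to alanine, and the series design describes its expression as hepatic. The labels do not say which promoter drives either cargo. Their treatment text describes liver surgery instead, which conflicts with the titles, the genotype field and the days after AAV; groups here follow the titles.

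Libraries held 13817718 to 19215472 counts. Levels are given as CPM, counts scaled to library size with TMM factors (the trimmed mean of M-values), and 1 CPM stood for 13.01 to 20.9 reads. A positive log2 fold change means a higher level under the Yap1S5A label. The error after ± is the SE of a fold change or the SD of a level, with n = 4. The level of Yap1 itself went against its label in liver, with 41.8 to 50.2 CPM in the Yap1S5A-labelled livers against 64.1 to 76.3 CPM in the GFP-labelled livers (log2 fold change -0.55 ± 0.12, edgeR adjusted p = 0.00089). In quadriceps the difference was 0.26 ± 0.10 (adjusted p = 0.11). Groups are therefore called Yap1S5A-labelled and GFP-labelled throughout. Summed hepatocyte markers (9 of 10 listed had a row) stood at 127900 to 149700 CPM in livers and 14.6 to 165.5 CPM in quadriceps, and 10 skeletal muscle markers at 146700 to 236400 CPM in quadriceps and 12.2 to 266.3 CPM in livers, so each library carried the tissue of its label.

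Chemokines are small secreted proteins that draw leukocytes along a gradient through receptors of the G protein-coupled class, while interleukins and colony-stimulating factors act through single-pass receptors that mostly signal by JAK kinases and STAT factors. The IL-1 and TNF branches signal through adaptor proteins to NF-kappaB, and are checked by secreted antagonists and decoy receptors. In liver, resident macrophages (Kupffer cells) depend on the receptor Csf1r, and monocytes carry Ccr2 and Cx3cr1 as they enter the tissue from blood. Yap1 binds no DNA itself and acts mainly with TEAD factors, whose core motif is GGAATG.

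Promoter sequences from RefSeq (build GRCm38.p6) were matched by symbol for 61 of the 84 members, and the 250 bases before each start were searched on both strands for GGAATG (TEAD) and for GGG and TTTCC set 2 bases apart (an NF-kappaB form). The TEAD letters stood in 8 of the 61 members (13.1%) against 12.6% of 27025 gene promoters, and the NF-kappaB letters in 6 of 61 (9.84%) against 1.4%. The TEAD share was thus close to the background of all promoters, and the letters alone are a description, not a bound site. Of the 6 members with the NF-kappaB letters, Csf1 and Ccl20 were higher in Yap1S5A-labelled livers. Il17rc was lower, Ccl9 and Cxcl1 did not pass, and Tnfrsf25 was too low to be tested there. Any link between the letters and the differences was not tested. The promoters shown are those of 3 members that were higher in Yap1S5A-labelled livers, each with a match, and of Cxcl1, which held a pair of NF-kappaB matches and did not pass the test in liver. Each runs 5′ to 3′ on the strand of its gene, with the matched letters in capitals. Csf1 (chr3:107760470-107760719, minus strand) has an NF-kappaB match 154 bases before the start; Ccl20 (chr1:83116516-83116765, plus strand) has an NF-kappaB match at 80 and a TEAD match at 45 bases; Tnfrsf11a (chr1:105780473-105780722, plus strand) has a TEAD match at 160 bases; Cxcl1 (chr5:90890995-90891244, plus strand) has NF-kappaB matches at 89 and 71 bases.
Csf1: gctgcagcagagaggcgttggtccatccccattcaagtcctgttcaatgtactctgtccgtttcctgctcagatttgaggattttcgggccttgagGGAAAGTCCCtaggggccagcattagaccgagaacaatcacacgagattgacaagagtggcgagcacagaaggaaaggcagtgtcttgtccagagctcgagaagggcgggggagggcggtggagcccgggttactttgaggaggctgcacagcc
Ccl20: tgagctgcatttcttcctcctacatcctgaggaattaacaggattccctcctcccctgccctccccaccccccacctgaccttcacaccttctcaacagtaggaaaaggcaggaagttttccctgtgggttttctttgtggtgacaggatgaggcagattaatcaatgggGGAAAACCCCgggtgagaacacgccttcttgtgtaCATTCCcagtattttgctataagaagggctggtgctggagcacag
Tnfrsf11a: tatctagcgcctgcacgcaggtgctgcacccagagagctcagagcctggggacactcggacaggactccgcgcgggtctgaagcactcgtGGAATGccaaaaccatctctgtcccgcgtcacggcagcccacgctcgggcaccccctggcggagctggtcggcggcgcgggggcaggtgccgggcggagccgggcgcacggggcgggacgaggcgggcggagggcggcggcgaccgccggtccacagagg
Cxcl1: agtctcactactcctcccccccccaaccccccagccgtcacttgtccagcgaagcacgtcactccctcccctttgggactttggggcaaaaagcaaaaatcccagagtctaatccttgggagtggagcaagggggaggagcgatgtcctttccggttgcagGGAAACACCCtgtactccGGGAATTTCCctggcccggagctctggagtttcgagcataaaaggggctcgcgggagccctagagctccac

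In liver most members were higher in the Yap1S5A-labelled group. Of the 84 members, 75 passed the low-count filter; 56 were higher and 10 lower at an edgeR adjusted p under 0.05, against 33.3% higher and 30.3% lower of all 12818 genes tested. Those shares were 74.7% and 13.3% of the members tested, the median log2 fold change was 1.87 against 0.03 for all genes, and 48 members were at least 2-fold higher against 5 at least 2-fold lower. By role, 33 of 42 receptors tested were higher and 6 lower, 18 of 28 ligands were higher and 4 lower, and the 5 antagonists and decoys tested were all higher. The 8 libraries did not overlap between groups for 62 of the 75 members, against 57.7% of all genes tested.

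Markers of several cell types were also called higher, though not all members of each list. The shares of all genes tested were 33.3% higher and 30.3% lower. All 18 macrophage and monocyte markers with a row (of 20 listed) were higher in Yap1S5A-labelled livers, with a median log2 fold change of 3.58 and a summed level of 2444 to 2674 CPM against 177.7 to 301.5 CPM. Among the defining markers of Kupffer cells, Clec4f stood at 266 to 298 CPM against 30.6 to 74.7 CPM and Timd4 at 13.8 to 20.96 CPM against 1.48 to 3.02 CPM. Dendritic cell markers were higher for 8 of 9 tested (summed 541 to 917 CPM against 64.1 to 99.5 CPM). Most of that sum came from the MHC class II genes H2-Aa, H2-Ab1 and Cd74, which macrophages also express, while Flt3, Siglech and Cd209a stayed at or below 2.11 CPM and Zbtb46 did not pass (0.17, adjusted p = 0.6). Of 10 neutrophil markers listed, 4 had a row and 3 of 3 tested were higher (9.33 to 16.3 CPM against 0.495 to 1.51 CPM). Mpo was at 0 in the GFP-labelled livers. In the Yap1S5A-labelled livers Mmp9 made up 4.5 to 13.6 CPM of that sum, and S100a8 and S100a9 stayed at or below 1.87 CPM. T, NK and B lymphocyte markers had a row for 6 of 19 listed, and 4 of these 6 were higher (74.0 to 86.1 CPM against 6.36 to 11.7 CPM). Nearly all of that sum in the Yap1S5A-labelled livers was Ptprc (CD45), a gene of all leukocytes, at 66.1 to 78.4 CPM, and Cd4 (0.28, adjusted p = 0.42) and Cd79a (0.98, adjusted p = 0.082) did not pass. Endothelial markers were higher for 9 and lower for 1 of 11 (466 to 551 CPM against 216 to 243 CPM). The lower one was Clec4g (-0.39, edgeR adjusted p = 0.032). Stellate cell and fibroblast markers were higher for 5 and lower for 1 of 10 (893 to 1311 CPM against 227 to 389 CPM). The lower one was Dcn (-0.83, adjusted p = 0.005), and Lrat, Reln, Des and Pdgfra did not pass. Bile duct markers were higher for 2 of 5 (1248 to 1634 CPM against 31.4 to 55.3 CPM). Spp1, which macrophages can also express, made up 1210 to 1593 CPM of the bile duct sum, and Krt7 (1.18, adjusted p = 0.069), Krt19 (0.32, adjusted p = 0.6) and Epcam (-0.82, adjusted p = 0.13) did not pass. The part of these cell types in the members' differences was not tested, and in bulk tissue more cells of a type and more RNA per cell cannot be told apart.

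**Figure D1:**
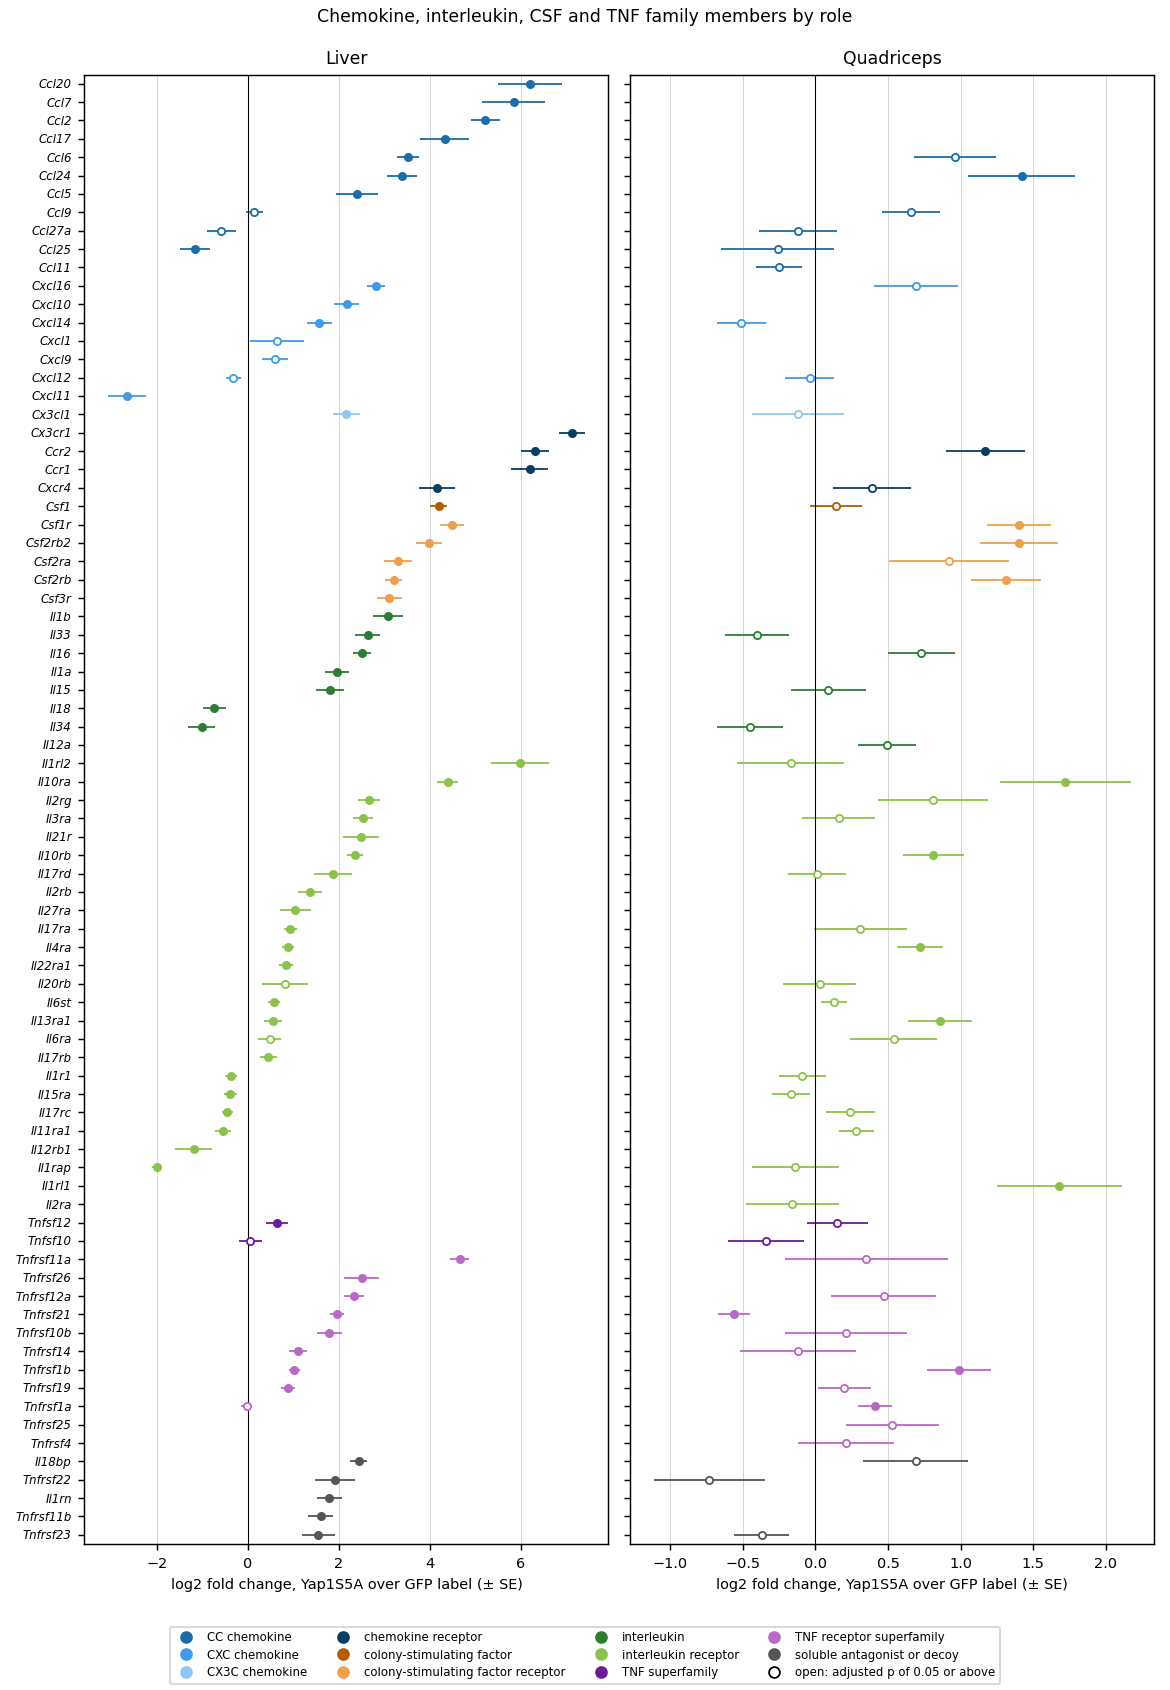
Log2 fold change (± SE) between the Yap1S5A and GFP labels for members tested (all but 1, which is counted in the text and not drawn), in liver (left) and quadriceps (right), grouped and coloured by role; filled points have an edgeR adjusted p under 0.05 and the horizontal scales differ. In liver most points are filled and to the right of 0, with 10 filled to the left, and in quadriceps 12 of 56 are filled to the right and 1 to the left.

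Among chemokine receptors Cx3cr1, Ccr2, Ccr1 and Cxcr4 were all higher in liver, with log2 fold changes of 4.16 to 7.12. Cx3cr1, the fractalkine receptor of monocytes and resident macrophages (chr9:120048683-120068296), stood at 85.2, 116, 98.8 and 102 CPM in the Yap1S5A-labelled livers and 0.424, 1.31, 0.767 and 0.307 CPM in the GFP-labelled livers. Every Yap1S5A-labelled library lay far above every GFP-labelled one, and the log2 fold change of 7.12 ± 0.28 (edgeR adjusted p = 3e-10) was the largest among the members. Ccr2, which binds Ccl2 and guides inflammatory monocytes, stood at 96.6, 82.8, 72.6 and 70.7 CPM against 0.707, 2.04, 0.419 and 0.845 CPM, a difference of 6.31 ± 0.31 (adjusted p = 1.5e-09). Ccr1, a receptor of several CC chemokines, was at 12.2, 16.2, 14.3 and 15.5 CPM against 0.141, 0.526, 0 and 0.0768 CPM (6.19 ± 0.40, adjusted p = 1.1e-08). Each of these 3 receptors stayed at or below 2.04 CPM in every GFP-labelled liver. Cxcr4, the receptor that holds leukocytes in place through Cxcl12, was at 5.85, 10.1, 5.07 and 6.84 CPM against 0.212, 0.788, 0.349 and 0.154 CPM (4.16 ± 0.40, adjusted p = 5.1e-07). None of these 4 receptors had overlapping groups in liver.

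The ligands of these receptors differed more among themselves. Ccl2, the chief attractant of Ccr2-bearing monocytes (chr11:82035577-82037452), stood at 39.1, 29.2, 18.9 and 28.2 CPM against 0.283, 1.12, 0.698 and 0.999 CPM, a log2 fold change of 5.22 ± 0.32 (edgeR adjusted p = 6.9e-09), and its lowest Yap1S5A-labelled library was above its highest GFP-labelled one. Cx3cl1, the membrane-bound partner of Cx3cr1, was at 3.69, 5.62, 3.18 and 5.98 CPM against 0.777, 1.38, 0.907 and 1.08 CPM (2.16 ± 0.30, adjusted p = 2.2e-05). Cxcl12, the partner of Cxcr4 and a product of stromal and endothelial cells, was at 266, 185, 231 and 187 CPM against 263, 264, 227 and 343 CPM (-0.32 ± 0.17, adjusted p = 0.11). Its groups overlapped and the test did not call it, although it passed as lower without Yap1S5A-labelled liver replicate 1 (-0.48, adjusted p = 0.022) and when a trend with gene length was taken out (-0.77, adjusted p = 0.00056). Receptor and ligand were therefore both higher for the Cx3cl1 and Ccl2 pairs, and the receptor alone was called for the Cxcl12 pair.

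Among the other CC chemokines 6 were higher: Ccl5, Ccl6, Ccl7, Ccl17, Ccl20 and Ccl24. Of all 10 CC chemokines tested, Ccl2 included, 70% were higher and 10% lower, against 33.3% and 30.3% of all genes tested. The counts of Ccl20, the ligand of Ccr6, summed to 148 in the Yap1S5A-labelled livers and 1 in the GFP-labelled livers, a depth-scaled ratio of 102 (95% counting interval 18.1 to 4069). For Ccl7, a relative of Ccl2 that also binds Ccr2, the sums were 115 and 1, a ratio of 79.5 (14.0 to 3168). Ccl6 (3.51 ± 0.24), Ccl24 (3.39 ± 0.33), Ccl17 (4.32 ± 0.53) and Ccl5 (2.39 ± 0.46) were called with adjusted p from 1.8e-08 to 0.00041. Ccl9 and Ccl27a, at 0.14 ± 0.18 and -0.59 ± 0.32, did not pass (adjusted p = 0.49 and 0.12). Ccl9 stood at 95.8, 67.8, 97.7 and 60.5 CPM against 73.4, 86.4, 71.7 and 62.4 CPM, with overlap. Ccl25, which guides gut lymphocytes through Ccr9, was lower, at 1.77, 0.775, 1.19 and 1.005 CPM against 2.90, 2.37, 3.63 and 1.92 CPM (-1.17 ± 0.33, adjusted p = 0.0063), without overlap; with the length trend taken out it did not pass (adjusted p = 0.094). Ccl8 and Ccl11 were too low in liver to be tested.

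Of the 7 CXC chemokines tested, 3 were higher and 1 lower (42.9% and 14.3%), against 33.3% and 30.3% of all genes tested. The share higher was thus not far from that of all genes. Cxcl9, Cxcl10 and Cxcl11, the ligands of Cxcr3 that interferon-gamma induces, lie in a cluster on chromosome 5 (from base 92321331 to 92363296) and did not all differ in the same direction. Cxcl10 was higher (8.35, 8.48, 6.36 and 9.52 CPM against 1.34, 2.89, 1.12 and 1.92 CPM; 2.17 ± 0.27, edgeR adjusted p = 8.6e-06). Cxcl11 was lower, at 0.688, 0.339, 0.298 and 0.239 CPM against 2.76, 3.42, 1.40 and 2.54 CPM, with a log2 fold change of -2.66 ± 0.41 (adjusted p = 5.8e-05), and is known in C57BL/6 mice to carry a frameshift that stops the protein. Cxcl9 did not pass (0.59 ± 0.28, adjusted p = 0.076), although it was called higher with upper-quartile factors and without GFP-labelled liver replicate 1. Cxcl10 shares 12.0% of its exon bases with Art3 on the opposite strand, and the counting is not stated to use strand. Cxcl16, a transmembrane ligand of Cxcr6 (2.82 ± 0.20), and Cxcl14 (1.57 ± 0.27) were higher. Cxcl16 shares 22.5% of its exon bases with Zmynd15, also on the opposite strand. Cxcl1, an attractant of neutrophils with the NF-kappaB matches shown above, was at 7.96, 14.8, 5.61 and 24.2 CPM against 5.23, 17.4, 3.63 and 7.53 CPM; its libraries spread over a wide range in both groups and the difference of 0.64 ± 0.59 did not pass (adjusted p = 0.37), although it was called higher with the replicate block.

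**Figure D2:**
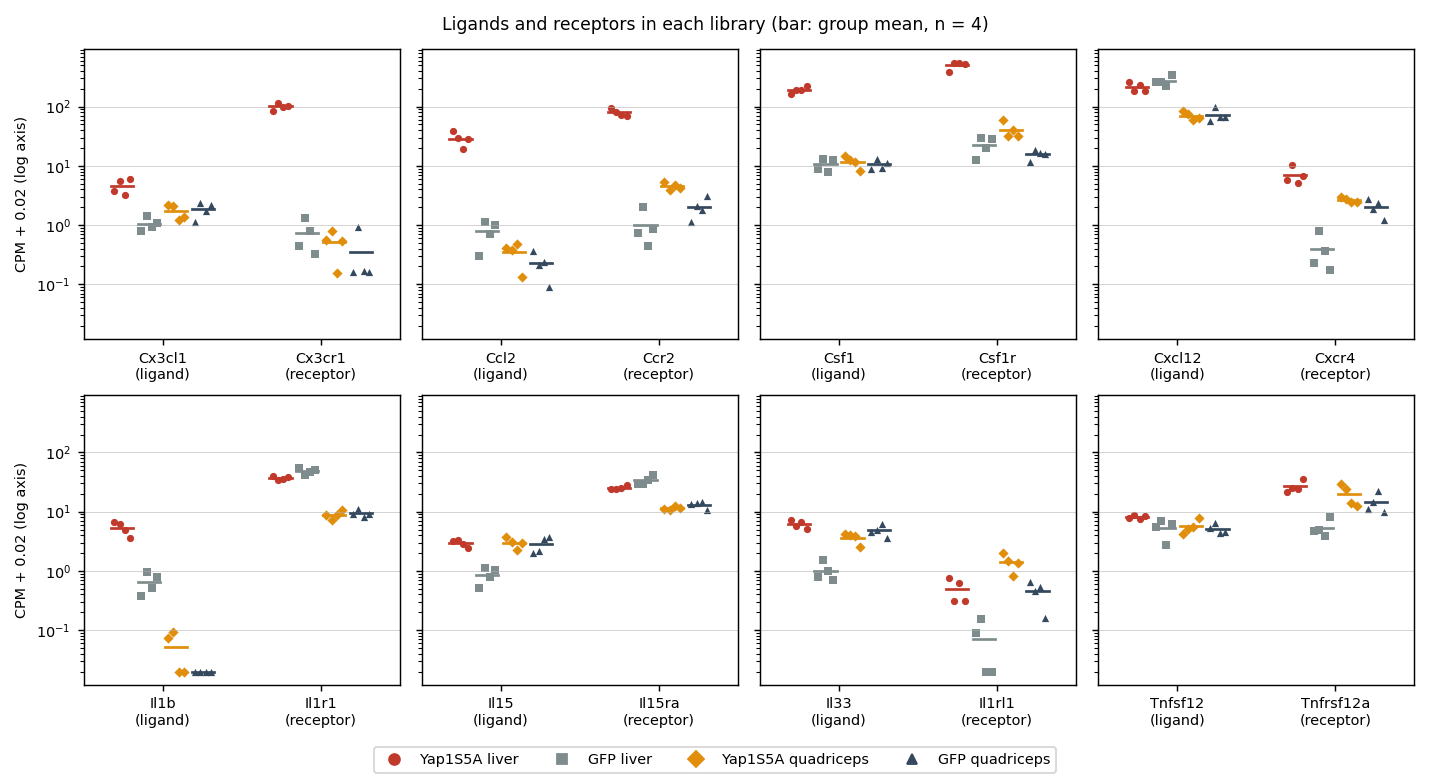
CPM plus 0.02 on a log axis for 8 ligands and their receptors in each of the 16 libraries; points are libraries and bars group means. Cx3cr1, Ccr2 and Csf1r are high in the 4 Yap1S5A-labelled livers and low in the GFP-labelled livers, whereas Il1r1 and Il15ra, the receptors of Il1b and Il15, are slightly lower there than in the GFP-labelled livers.

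The colony-stimulating factor branch was higher at both ends in liver. Csf1, which sustains macrophages and monocytes (chr3:107741048-107760469), stood at 163, 192, 195 and 224 CPM against 8.84, 13.1, 7.95 and 12.8 CPM, a log2 fold change of 4.19 ± 0.19 (edgeR adjusted p = 7.1e-10), or 18.3-fold. Its receptor Csf1r stood at 387, 555, 540.5 and 532 CPM against 12.7, 29.3, 19.8 and 28.9 CPM (4.48 ± 0.26, adjusted p = 3.8e-09). The groups were wide apart for both genes, and replicate 1 was the lowest Yap1S5A-labelled library for each. Il34, the other ligand of Csf1r, was lower, at 1.33, 1.11, 0.795 and 1.82 CPM against 2.90, 2.37, 2.65 and 2.46 CPM (-1.02 ± 0.30, adjusted p = 0.0082), without overlap, so the ligands of this receptor differed in opposite directions. Csf2rb2, a mouse beta chain of the IL-3 receptor, stood at 12.4, 15.4, 16.3 and 18.1 CPM against 0.424, 0.788, 1.81 and 0.922 CPM (3.98 ± 0.29, adjusted p = 3.4e-08). The common beta chain Csf2rb (3.20 ± 0.18), the GM-CSF receptor alpha chain Csf2ra (3.30 ± 0.31) and the G-CSF receptor Csf3r (3.11 ± 0.28) were higher as well, with adjusted p from 2.7e-09 to 1.3e-06. Csf2rb and Csf2rb2 are close copies of each other, and how reads shared between them were counted is not given, so the split between them is uncertain.

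Interleukin receptors held 6 of the 10 decreases among the members. Of the 23 tested in liver, 15 were higher and 6 lower (65.2% and 26.1%), against 33.3% and 30.3% of all genes tested. Their share lower was thus not above that of all genes. The median log2 fold change was 0.84. Il1rl2, the receptor of the IL-36 cytokines, counted 218 reads in the Yap1S5A-labelled livers and 2 in the GFP-labelled livers, at 1.67, 2.86, 3.38 and 2.73 CPM against 0, 0.131, 0 and 0 CPM, a depth-scaled ratio of 75.4 (95% counting interval 20.6 to 626; edgeR adjusted p = 1.4e-06). Il10ra, the ligand-binding chain for the anti-inflammatory cytokine IL-10, stood at 48.9, 50.2, 47.5 and 49.9 CPM against 1.63, 3.02, 1.40 and 3.46 CPM (4.39 ± 0.23, adjusted p = 1.5e-09). The Yap1S5A-labelled libraries were within a few CPM of one another for Il10ra and far above the GFP-labelled ones. Its partner chain Il10rb was also higher (2.35 ± 0.17), although it shares 30.8% of its exon bases with another gene on the same strand. The common gamma chain Il2rg (2.66 ± 0.24), Il3ra (2.52 ± 0.22), Il21r (2.49 ± 0.40), Il17rd (1.87 ± 0.41), Il2rb (1.37 ± 0.26) and Il27ra (1.04 ± 0.34) were at least 2-fold higher, and Il2rg shares 43.8% of its exon bases with a gene on the same strand. Il27ra had overlapping groups and was not called without Yap1S5A-labelled liver replicate 2 or 4. Smaller differences were called for Il4ra (0.88 ± 0.14), Il22ra1 (0.84 ± 0.15), Il13ra1 (0.55 ± 0.19) and Il17rb (0.45 ± 0.19), of which Il13ra1 and Il17rb each lost the call without single libraries. Il13ra1 also lost it with the length trend taken out (0.35, adjusted p = 0.12), and Il17rb, whose groups overlapped, with RLE factors, the deposited library sizes, no filter and DESeq2. Il20rb did not pass (0.82 ± 0.51, adjusted p = 0.18).

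The lower receptors were led by Il1rap, the accessory chain that the IL-1, IL-33 and IL-36 receptors share (chr16:26581705-26725147). It stood at 35.9, 33.4, 36.02 and 36.6 CPM in Yap1S5A-labelled livers and 151, 146, 138 and 136 CPM in GFP-labelled livers, a log2 fold change of -2.00 ± 0.12 (edgeR adjusted p = 5.9e-09), and both groups were tight. Il1r1, the signalling receptor of IL-1, was at 39.5, 34.9, 35.6 and 38.05 CPM against 55.6, 41.5, 46.3 and 50.9 CPM (-0.38 ± 0.13, adjusted p = 0.018). Il17rc, a chain of the IL-17 receptor, was at 27.1, 31.6, 34.1 and 30.7 CPM against 39.9, 40.1, 48.98 and 40.8 CPM (-0.45 ± 0.12, adjusted p = 0.0063). None of these receptors had overlapping groups. Il11ra1, the IL-11 receptor alpha chain, was at 21.6, 18.5, 20.1 and 18.7 CPM against 26.4, 25.4, 41.1 and 23.97 CPM (-0.55 ± 0.17, adjusted p = 0.011). Il15ra, which presents IL-15 to neighbouring cells, was at 24.3, 23.8, 24.7 and 28.7 CPM against 29.6, 29.3, 34.5 and 41.3 CPM (-0.39 ± 0.14, adjusted p = 0.021). Both were without overlap, but neither passed with the length trend taken out (adjusted p = 0.088 and 0.19), and Il15ra and Il1r1 also failed with upper-quartile scaling (0.065 and 0.051). Without GFP-labelled liver replicate 4 Il15ra did not pass (adjusted p = 0.072), and without replicate 1 of the same group Il1r1 did not (0.071). Raw counts, before any scaling, overlapped for Il1r1 (716 to 803 against 631 to 787) and Il17rc (552 to 687 against 531 to 702). They also overlapped for Il11ra1 (382 to 440 against 312 to 589) and Il15ra (492 to 599 against 419 to 538). The lower levels of these receptors thus depend on the TMM factors. Raw counts of Il1rap did not overlap (690 to 764 against 1764 to 2227). Il12rb1, a chain of the IL-12 and IL-23 receptors, was lower with overlapping groups (-1.19 ± 0.41, adjusted p = 0.02), a call lost without GFP-labelled liver replicate 3. Mouse Il11ra1 has close copies, and reads shared with them make its level uncertain.

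Chains of the IL-6 and IL-17 receptors differed in direction and call. Il6ra, the IL-6 binding chain that hepatocytes carry, was at 44.1, 58.9, 65.03 and 72.1 CPM against 49.1, 21.03, 45.3 and 58.5 CPM, with overlap (0.48 ± 0.25, edgeR adjusted p = 0.11; 0.64 and 0.041 without GFP-labelled liver replicate 4, and 0.54 and 0.042 with the replicate block). Il6st, the gp130 chain shared by the IL-6 family, was at 154, 180.0, 171 and 171 CPM against 113, 124, 94.9 and 128 CPM (0.57 ± 0.13, adjusted p = 0.0018), without overlap; with the length trend taken out it did not pass (0.21, adjusted p = 0.18). Il17ra, the shared IL-17 receptor chain, was at 35.5, 54.6, 48.3 and 46.2 CPM against 21.4, 23.7, 24.7 and 27.7 CPM (0.93 ± 0.14, adjusted p = 5.2e-05), so its groups stood apart in the opposite direction to its partner Il17rc.

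Among interleukins 5 of 7 tested were higher in liver and 2 lower (71.4% and 28.6%), against 33.3% and 30.3% of all genes tested. The share lower was thus near that of all genes. Il1b, an inflammatory cytokine that needs caspase-1 to mature, stood at 6.63, 6.25, 4.97 and 3.54 CPM against 0.353, 0.920, 0.488 and 0.768 CPM (3.08 ± 0.33, edgeR adjusted p = 1.9e-06). The secreted IL-1 receptor antagonist Il1rn was higher too, at 6.53, 9.74, 4.37 and 5.93 CPM against 1.63, 2.10, 2.44 and 1.54 CPM (1.79 ± 0.27, adjusted p = 5.2e-05). Ligand and antagonist of the IL-1 system were thus both higher where the receptor chains Il1r1 and Il1rap were lower. Il33, an alarmin of the nucleus, was at 7.27, 5.81, 6.61 and 5.03 CPM against 0.777, 1.51, 0.977 and 0.692 CPM (2.63 ± 0.28, adjusted p = 1.5e-06), and its receptor Il1rl1, at 0.737, 0.291, 0.596 and 0.287 CPM against 0.0707, 0.131, 0 and 0 CPM, was too low for the test. Il15, a survival factor of NK and memory T cells, was at 3.19, 3.25, 2.83 and 2.44 CPM against 0.495, 1.12, 0.767 and 0.999 CPM (1.80 ± 0.31, adjusted p = 0.00014), again with its receptor chain Il15ra lower. Il16 (2.51 ± 0.20) and Il1a (1.96 ± 0.27) were higher, and they share 24.1% and 11.2% of their exon bases with genes on the opposite strand. Il18, a cytokine of the IL-1 family, was lower at 3.78, 3.73, 4.87 and 5.41 CPM against 10.2, 8.80, 6.07 and 4.84 CPM (-0.74 ± 0.25, adjusted p = 0.016), with overlapping groups; it did not pass without GFP-labelled liver replicate 1 (adjusted p = 0.071), and was at 0 (adjusted p = 0.99) with the length trend taken out. Its secreted antagonist Il18bp moved the other way, at 31.4, 36.1, 39.99 and 41.97 CPM against 4.38, 8.28, 8.72 and 6.45 CPM (2.43 ± 0.19, adjusted p = 8.5e-08).

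In the TNF family, 8 of 9 receptors tested were higher in liver, against 33.3% of all genes tested. Tnfrsf11a (RANK, chr1:105780723-105847981), the receptor by which RANKL drives osteoclasts, stood at 11.8, 15.7, 15.2 and 14.2 CPM against 0.566, 0.526, 0.558 and 0.615 CPM (4.65 ± 0.21, edgeR adjusted p = 7e-10), with a tight and low level in every GFP-labelled liver. Its secreted decoy Tnfrsf11b (osteoprotegerin) was at 6.14, 8.77, 7.90 and 13.3 CPM against 2.19, 3.48, 3.98 and 2.23 CPM (1.60 ± 0.27, adjusted p = 0.00012). Tnfrsf12a (Fn14), the receptor of TWEAK, was at 21.7, 25.3, 23.8 and 35.9 CPM against 4.74, 4.93, 3.84 and 7.99 CPM (2.33 ± 0.22, adjusted p = 5e-07). These 3 genes had no overlap between groups. Tnfsf12, the ligand TWEAK, was at 7.86, 8.82, 7.60 and 8.47 CPM against 5.58, 6.83, 2.72 and 6.15 CPM (0.63 ± 0.24, adjusted p = 0.029). This call was lost on leaving out any of the 4 Yap1S5A-labelled livers (adjusted p = 0.052, 0.085, 0.058 and 0.066 for replicates 1 to 4) or GFP-labelled liver replicate 3 (0.41, adjusted p = 0.05), and Tnfsf12 shares 57.7% of its exon bases with a readthrough gene on the same strand.

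The TNF receptors themselves behaved unlike each other. Tnfrsf1a, the widely expressed TNF receptor, was at 109, 110.0, 104 and 114 CPM against 115, 116, 108 and 112 CPM, with overlap and a difference of -0.03 ± 0.12 (edgeR adjusted p = 0.82) whose sign turned with upper-quartile scaling (0.05) and with the length trend taken out (0.10). Tnfrsf1b, the TNF receptor of leukocytes and endothelium, was at 47.8, 57.5, 50.5 and 51.4 CPM against 25.2, 22.1, 26.02 and 29.7 CPM (1.02 ± 0.12, adjusted p = 6e-06), without overlap. Tnfrsf10b, the receptor of the death ligand TRAIL, was at 5.90, 8.62, 8.59 and 8.95 CPM against 3.39, 1.71, 1.19 and 3.07 CPM (1.79 ± 0.28, adjusted p = 7.1e-05). TRAIL itself, Tnfsf10, was at 6.19, 4.02, 3.68 and 4.07 CPM against 6.22, 3.94, 3.14 and 4.30 CPM, with overlap (0.05 ± 0.25, adjusted p = 0.89). Tnfrsf26 (2.50 ± 0.39), Tnfrsf21 (1.95 ± 0.15), Tnfrsf14 (1.10 ± 0.20) and Tnfrsf19 (0.88 ± 0.16) were also higher, as were Tnfrsf22 (1.91 ± 0.44) and Tnfrsf23 (1.55 ± 0.37), decoy receptors for TRAIL in mouse. Tnfrsf22, Tnfrsf23 and Tnfrsf26 are close copies in a cluster on chromosome 7, so the split of reads among them is uncertain. Apart from Tnfrsf1a, the receptors and decoys of this family that were tested had groups that did not overlap, as did 57.7% of all genes tested.

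In quadriceps far fewer members differed. Of 56 members tested 12 were higher and 1 lower, 21.4% and 1.79%, against 4.21% higher and 4.82% lower of all 12121 genes tested. The median log2 fold change was 0.23 for the members and 0 for all genes, and groups did not overlap for 13 of 56 members against 15.7% of all genes tested. Receptors made up 11 of the 12 higher members (of 35 tested) and the ligand Ccl24 was the other (of 18 tested). DESeq2 called 15 higher, the additions being the ligands Ccl9, Ccl6 and Il16. The count rested on single libraries: 6 of the 12 were called without Yap1S5A-labelled quadriceps replicate 1, 7 without replicate 3 of that group and 8 without GFP-labelled replicate 1. Csf1r, Csf2rb2, Csf2rb, Ccr2, Tnfrsf1b and Il4ra were called in all 3 of these.

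**Figure D3:**
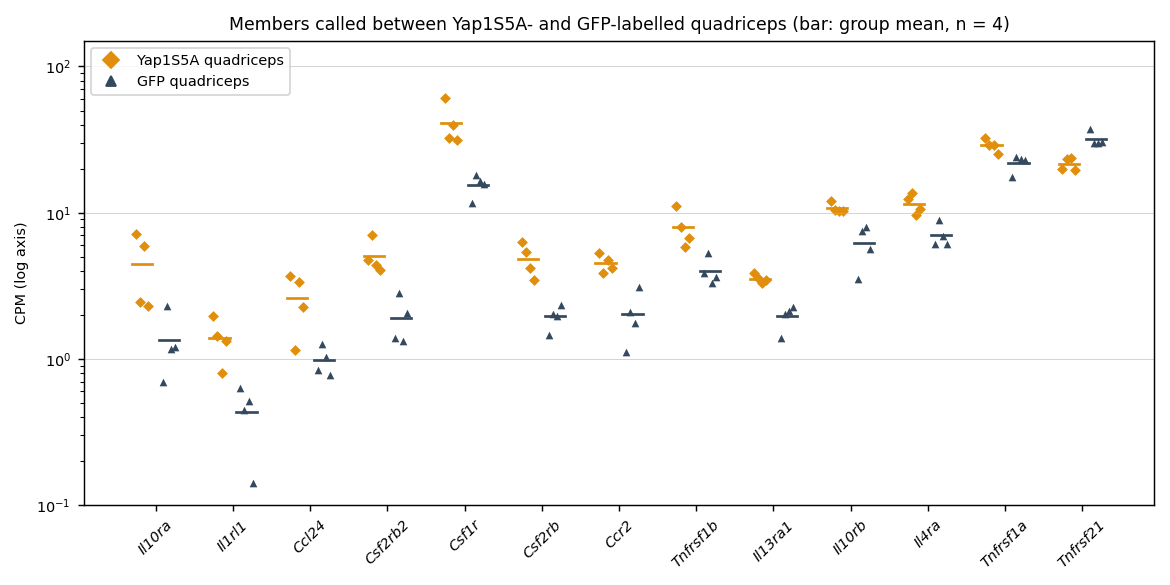
CPM on a log axis of the 13 members called between Yap1S5A-labelled and GFP-labelled quadriceps, in order of log2 fold change; points are libraries and bars group means. The groups overlap for Ccl24 alone, and Tnfrsf21 is the only member lower in the Yap1S5A-labelled libraries.

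Of the colony-stimulating factor receptors 3 of 4 tested were higher in quadriceps, against 4.21% of all genes tested. Csf1r stood at 60.5, 32.4, 39.6 and 31.5 CPM in the Yap1S5A-labelled libraries and 11.7, 18.2, 16.5 and 15.8 CPM in the GFP-labelled libraries (1.40 ± 0.22, edgeR adjusted p = 0.0049), with replicate 1 the highest. Csf2rb2 was at 4.73, 7.03, 4.42 and 4.04 CPM against 1.40, 2.81, 1.32 and 2.06 CPM (1.40 ± 0.27, adjusted p = 0.0058). Csf2rb was at 6.27, 5.38, 4.22 and 3.46 CPM against 1.47, 2.04, 1.98 and 2.34 CPM (1.31 ± 0.24, adjusted p = 0.0044). All 3 were without overlap, and Csf2ra, at 0.92 ± 0.41, did not pass (adjusted p = 0.2). Csf1, the ligand, was at 14.7, 12.7, 11.4 and 8.08 CPM against 8.88, 13.1, 9.22 and 11.3 CPM, with overlapping groups (0.14 ± 0.18, adjusted p = 0.69).

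Ccr2 was at 5.33, 3.87, 4.75 and 4.21 CPM against 1.12, 2.10, 1.76 and 3.12 CPM in quadriceps (1.17 ± 0.27, edgeR adjusted p = 0.016), without overlap. Its ligand Ccl2, at 0.385, 0.359, 0.469 and 0.115 CPM against 0.349, 0.191, 0.220 and 0.0709 CPM, and Cx3cr1, at 0.550, 0.789, 0.134 and 0.519 CPM against 0.140, 0.893, 0.146 and 0.142 CPM, were too low for the test. Cxcr4 was at 2.92, 2.73, 2.48 and 2.42 CPM against 2.73, 1.85, 2.34 and 1.21 CPM (0.39 ± 0.27, adjusted p = 0.43), with overlap. The chemokine ligands of these receptors did not pass either: Cxcl12 stood at 83.7, 74.4, 59.1 and 64.6 CPM against 56.7, 99.9, 66.6 and 67.4 CPM (-0.04 ± 0.17, adjusted p = 0.92), and Cx3cl1 at 2.15, 2.08, 1.21 and 1.33 CPM against 1.12, 2.36, 1.68 and 2.20 CPM (-0.12 ± 0.32, adjusted p = 0.86). Ccl24, an eosinophil attractant, was called with overlapping groups (3.69, 1.148, 3.35 and 2.25 CPM against 0.839, 1.27, 1.02 and 0.780 CPM; 1.42 ± 0.37, adjusted p = 0.027). Ccl6, at 0.96 ± 0.28, had an adjusted p that rounds to 0.05 and was not called. It was called higher with RLE or upper-quartile factors, the deposited library sizes, the stricter filter, DESeq2, the length trend taken out and the replicate block, and without Yap1S5A-labelled replicate 2 or GFP-labelled replicate 4.

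Of the interleukin receptors 5 of 19 tested were higher in quadriceps (26.3%), against 4.21% of all genes tested. Il10ra was at 7.15, 2.44, 5.89 and 2.31 CPM against 0.699, 2.30, 1.17 and 1.21 CPM (1.72 ± 0.45, edgeR adjusted p = 0.036), with replicates 1 and 3 of the Yap1S5A-labelled group well above the others and replicate 4 barely above the highest GFP-labelled library. Il10rb was at 12.1, 10.4, 10.3 and 10.3 CPM against 3.50, 7.53, 8.05 and 5.67 CPM (0.81 ± 0.21, adjusted p = 0.029). Il4ra, the receptor chain that IL-4 and IL-13 share, was at 12.4, 13.6, 9.64 and 10.6 CPM against 6.15, 8.93, 6.95 and 6.10 CPM (0.72 ± 0.16, adjusted p = 0.014). The partner of Il4ra in the type II receptor, Il13ra1, was higher as well, at 3.85, 3.59, 3.28 and 3.46 CPM against 1.40, 2.04, 2.12 and 2.27 CPM (0.86 ± 0.22, adjusted p = 0.029). Il1rl1, the IL-33 receptor of regulatory T cells and type 2 lymphoid cells, was at 1.98, 1.44, 0.804 and 1.33 CPM against 0.629, 0.446, 0.512 and 0.142 CPM (1.68 ± 0.43, adjusted p = 0.027). None of these 5 had overlapping groups. Calls for Il10ra, Il10rb, Il13ra1 and Il1rl1 were each lost on leaving out 1 of several libraries, with adjusted p up to 0.11, 0.087, 0.074 and 0.095.

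The other interleukin receptors tested in quadriceps did not pass. Il6st was at 248, 249.6, 252 and 226 CPM against 254, 208, 222 and 216 CPM (0.13 ± 0.09, edgeR adjusted p = 0.43), and Il6ra at 6.93, 4.02, 6.36 and 7.27 CPM against 6.22, 3.38, 5.41 and 2.13 CPM (0.54 ± 0.30, adjusted p = 0.31). Il17ra was at 6.16, 2.80, 2.54 and 2.89 CPM against 1.89, 2.68, 2.93 and 4.26 CPM (0.31 ± 0.32, adjusted p = 0.62), where replicate 1 of the Yap1S5A-labelled group stood alone above the rest. Il15ra was at 11.2, 10.8, 12.5 and 11.6 CPM against 13.5, 13.9, 14.3 and 10.7 CPM (-0.17 ± 0.13, adjusted p = 0.46), and Il1r1 at 8.75, 7.17, 8.71 and 10.5 CPM against 9.09, 11.3, 8.27 and 9.01 CPM (-0.09 ± 0.16, adjusted p = 0.79). Groups overlapped for all 5. Il1rap, Il11ra1, Il17rc and Il1rl2 had differences of -0.14 ± 0.30, 0.28 ± 0.12, 0.24 ± 0.17 and -0.17 ± 0.37, with adjusted p from 0.16 to 0.83.

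Interleukin ligands and antagonists did not pass in quadriceps either, where 5 and 3 of them were tested. Il15 was at 3.69, 3.01, 2.28 and 2.94 CPM against 1.96, 2.17, 3.44 and 3.76 CPM (0.09 ± 0.26, edgeR adjusted p = 0.88), and Il33 at 4.12, 3.94, 3.88 and 2.54 CPM against 4.54, 4.85, 6.29 and 3.55 CPM (-0.40 ± 0.22, adjusted p = 0.29). Il16, at 9.52, 5.88, 5.42 and 4.85 CPM against 2.73, 4.14, 4.83 and 3.90 CPM, had groups that did not overlap, but its difference of 0.73 ± 0.23 missed the threshold (adjusted p = 0.069); DESeq2 called it. Il18bp was at 1.38, 1.44, 1.41 and 0.923 CPM against 0.699, 0.893, 1.17 and 0.426 CPM (0.69 ± 0.36, adjusted p = 0.27). Il1b had 2 libraries with any count, Il1rn 1, and Il18 and Tnfrsf11b reached at most 1.005 and 0.732 CPM, all too low for the test.

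In the TNF family 2 receptors were higher and 1 lower among 10 tested in quadriceps, against 4.21% and 4.82% of all genes tested. Tnfrsf1b was at 11.1, 8.03, 5.83 and 6.75 CPM against 3.85, 5.29, 3.29 and 3.62 CPM (0.99 ± 0.22, edgeR adjusted p = 0.012). Tnfrsf1a was at 32.6, 29.1, 28.9 and 25.2 CPM against 17.6, 24.2, 23.1 and 22.8 CPM (0.41 ± 0.12, adjusted p = 0.043), a call lost on leaving out any of 6 of the 8 libraries. Tnfrsf21 (DR6), a death receptor of neurons and lymphocytes (chr17:43016555-43089188), was lower, at 19.9, 23.2, 23.6 and 19.4 CPM against 37.6, 29.9, 29.9 and 30.6 CPM (-0.56 ± 0.11, adjusted p = 0.0059). None of the 3 had overlapping groups. Tnfrsf12a, at 29.4, 23.96, 14.1 and 12.5 CPM against 11.2, 14.3, 22.6 and 9.86 CPM, overlapped (0.47 ± 0.36, adjusted p = 0.49), as did its ligand Tnfsf12, at 4.24, 5.09, 5.56 and 7.73 CPM against 5.24, 6.38, 4.39 and 4.47 CPM (0.15 ± 0.21, adjusted p = 0.72). Tnfsf10 was at 7.21, 6.82, 6.96 and 4.67 CPM against 6.29, 9.12, 4.90 and 12.3 CPM (-0.34 ± 0.26, adjusted p = 0.47). Its receptor Tnfrsf10b was at 2.64, 1.72, 0.938 and 0.750 CPM against 1.26, 1.21, 0.732 and 2.06 CPM (0.21 ± 0.42, adjusted p = 0.81), and Tnfrsf11a was at 1.71, 0.502, 0.804 and 0.577 CPM against 0.419, 1.53, 0.220 and 0.638 CPM (0.35 ± 0.56, adjusted p = 0.76). Groups overlapped for all of these and the test called no difference.

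Macrophage and monocyte markers were higher in the same quadriceps: 12 of 15 tested, against 4.21% higher and 4.82% lower of all genes tested. Their median log2 fold change was 1.19, with summed levels of 213 to 358 CPM against 77.8 to 141 CPM. Adgre1, which encodes the macrophage antigen F4/80, stood at 7.59, 4.52, 6.43 and 6.23 CPM against 1.33, 2.04, 2.93 and 3.33 CPM, while Marco was at 0 in both groups and the Kupffer cell gene Clec4f at 0 in the GFP-labelled group. Dendritic cell markers were higher for 3 of 5 tested (123 to 154 CPM against 68.2 to 94.1 CPM): these were the MHC class II genes H2-Aa, H2-Ab1 and Cd74, and Cd209a (-0.17, adjusted p = 0.85) and Zbtb46 (-0.26, adjusted p = 0.48) did not pass. Hepatocyte markers summed to 165.5 and 71.2 CPM in replicates 1 and 2 of the Yap1S5A-labelled quadriceps and lay within the GFP-labelled range of 14.6 to 36.6 CPM in the other two, with a median log2 fold change of 1.97 over 6 tested and Ttr called higher (3.24, adjusted p = 0.03); replicate 1, without which 6 of the 12 members were called, was the highest. Stellate cell and fibroblast markers were higher for 2 of 9 tested, Des and Acta2, and lower for 3, the collagen genes Col1a1, Col1a2 and Col3a1. Of these, Col3a1 stood at 119.9 to 202 CPM against 275.1 to 374.3 CPM. The whole list summed to 5425 to 5989 CPM against 4842 to 5610 CPM. Most of that sum was Des, at 4690 to 5190 CPM against 3478 to 4226 CPM. The summed skeletal muscle markers stood at 146700 to 184800 CPM against 202100 to 236400 CPM, and 2 of the 10 passed as lower. The part of these shifts in the receptors' differences was not tested.

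**Figure D4:**
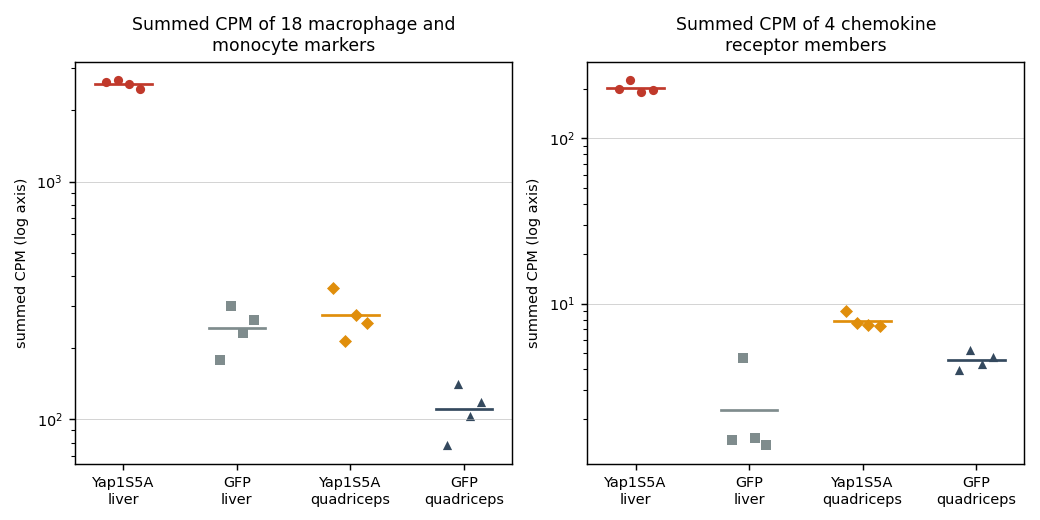
Summed CPM on a log axis of 18 macrophage and monocyte markers (left) and of the receptors Cx3cr1, Ccr2, Ccr1 and Cxcr4 (right) in each library; points are libraries and bars group means. Yap1S5A-labelled livers stand highest in both panels, at 2444 to 2674 CPM for the markers, and the Yap1S5A-labelled quadriceps lie above the GFP-labelled quadriceps in both.

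Whether the difference between labels itself differed between tissues was tested for the 50 members that passed the filter in both. The change in liver was higher for 31 and lower for 4 (70% called), against 26.7% and 24.3% (51% called) of the 11274 genes tested in both tissues. Among the 31 were Il1rl2 (6.15 ± 0.77, edgeR adjusted p = 2.2e-06), Ccr2 (5.13 ± 0.43, adjusted p = 1.5e-08), Tnfrsf11a (4.29 ± 0.61, adjusted p = 9.9e-06) and Csf1 (4.04 ± 0.27, adjusted p = 8.1e-10). Receptors called higher in both tissues were also higher by more in liver for Csf1r (3.08 ± 0.34), Il10ra (2.66 ± 0.54), Csf2rb2 (2.57 ± 0.44), Csf2rb (1.88 ± 0.30) and Il10rb (1.54 ± 0.28), with adjusted p of at most 0.00056. For Tnfrsf1b (0.03 ± 0.26, adjusted p = 0.96), Il4ra (0.15 ± 0.21, adjusted p = 0.57) and Il13ra1 (-0.32 ± 0.28, adjusted p = 0.37) the test called no difference between tissues. Of the 50 members 10 were called higher in both tissues, and the share of all genes so called was not computed.

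The change in liver was lower than that in quadriceps for Il1rap (-1.85 ± 0.25, edgeR adjusted p = 6.5e-06), Il11ra1 (-0.84 ± 0.22, adjusted p = 0.0034), Il17rc (-0.69 ± 0.18, adjusted p = 0.0036) and Tnfrsf1a (-0.45 ± 0.16, adjusted p = 0.023). The last of these was not called with upper-quartile scaling or without replicate 1 of either quadriceps group. Tnfrsf21 alone was called in opposite directions in the 2 tissues. In liver it stood at 18.7, 21.7, 23.4 and 21.5 CPM against 5.58, 5.98, 5.79 and 4.84 CPM (1.95 ± 0.15, adjusted p = 4.4e-08), and the difference between the changes was 2.51 ± 0.18 (adjusted p = 1.3e-09).

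Levels in the control tissues differed widely between members. Between GFP-labelled livers and GFP-labelled quadriceps, 31 of 67 members tested were higher in liver and 20 in quadriceps, against 40% and 38.8% of all 12865 genes tested; this comparison shares its libraries with those above. Per kb of exon, the highest mean levels in GFP-labelled liver were those of Tnfrsf1a (52.2 ± 1.57 CPM per kb), Cxcl12 (38.3 ± 6.85), Ccl9 (24.4 ± 3.29), Il6st (21.1 ± 2.73), Il17rc (17.9 ± 1.84) and Il1rap (16.8 ± 0.837). From Ccl9 downwards, neighbours in this order differed by less than the sum of their SDs. In GFP-labelled quadriceps they were those of Il6st (41.3 ± 3.63 CPM per kb), Cxcl14 (37.8 ± 8.46), Tnfrsf12a (15.01 ± 5.93), Il11ra1 (14.4 ± 1.92), Tnfrsf1a (10.2 ± 1.38) and Cxcl12 (10.1 ± 2.62). Il6st and Cxcl14 did not differ beyond that spread, nor did Tnfrsf12a and Il11ra1, nor Tnfrsf1a and Cxcl12. Cxcl14, a chemokine of skin and other epithelia, had a liver-to-quadriceps log2 fold change of -4.76 ± 0.28 (edgeR adjusted p = 4.5e-09).

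Several members were counted almost entirely in a single control tissue. Il17rb, a chain of the IL-25 receptor, had 737 counts in the GFP-labelled livers and 0 in the GFP-labelled quadriceps. With a floor of 3 counts over the group in place of 0 the ratio was 250.2, and its 95% counting interval starts at 202.9. Il22ra1, the receptor by which liver and epithelia answer IL-22, had 608 counts against 2, a ratio of 309.6 (95% counting interval 85.3 to 2562). Ccl11 (eotaxin) went the other way with 548 counts in GFP-labelled quadriceps against 2 in GFP-labelled livers, a ratio of 269 (74.1 to 2227), and so did Il12a, the p35 chain of IL-12, with 216 against 3 counts (70.7, interval 23.9 to 345.5). Il1rap, the most reduced receptor of the Yap1S5A-labelled livers, stood at 16.8 ± 0.837 CPM per kb in GFP-labelled liver and 0.247 ± 0.0911 CPM per kb in GFP-labelled quadriceps, a log2 fold change of 6.09 ± 0.21 (edgeR adjusted p = 6.5e-12). Csf1 had overlapping groups, at 2.41 ± 0.596 and 2.41 ± 0.450 CPM per kb (0.02 ± 0.20, adjusted p = 0.94).

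**Figure D5:**
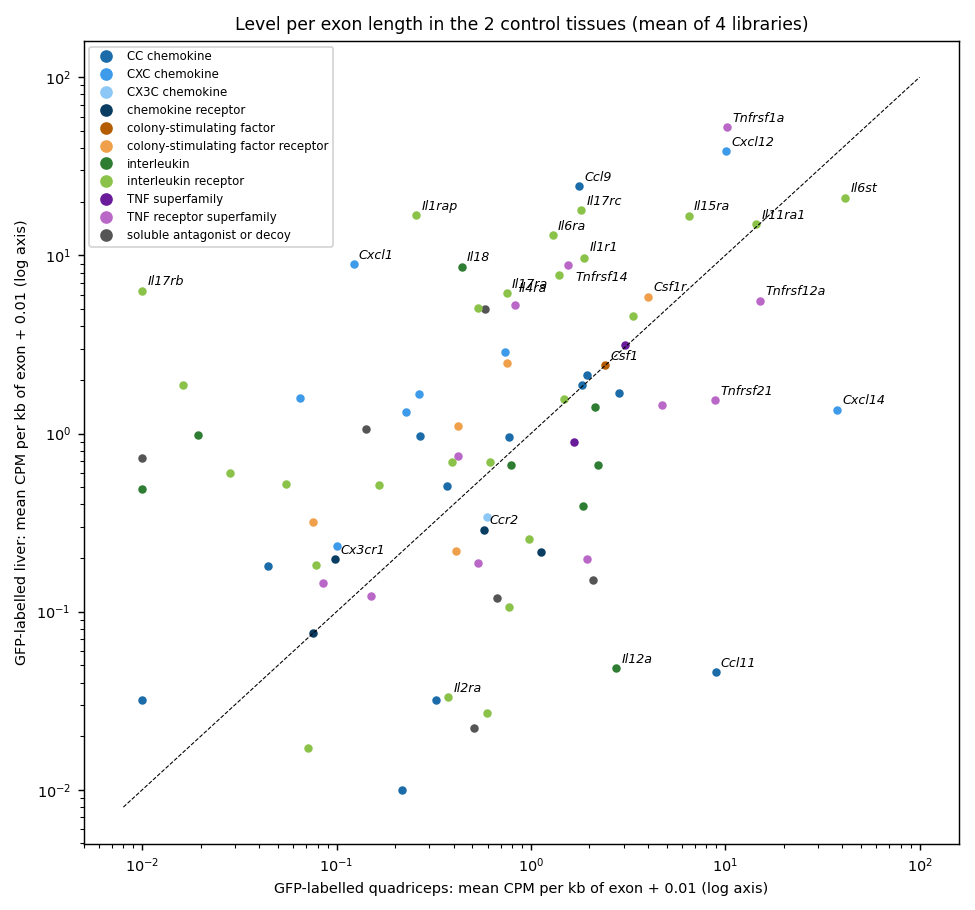
Mean CPM per kb of exon plus 0.01 in GFP-labelled liver against GFP-labelled quadriceps, both on log axes, for all but 1 of the 84 members, coloured by role; the dashed line marks equal levels. Il17rb, Il1rap and Cxcl1 lie far above the line, Ccl11, Il12a and Cxcl14 far below it, and Csf1, Il11ra1 and Csf1r close to it.

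Other genes of these pathways that the symbol rule leaves out were read from fixed lists. Of 36 other chemokine, cytokine and receptor genes tested in liver 24 were higher and 7 lower (median log2 fold change 0.94). The shares of all genes tested were 33.3% higher and 30.3% lower. The platelet chemokine Pf4 (5.27 ± 0.33), the cytokine Lif (4.36 ± 0.51) and the TNF receptor relative Relt (3.93 ± 0.36) had the largest increases, and Cntfr (-1.78 ± 0.29), Mif (-1.73 ± 0.19) and the LIF receptor Lifr (-1.65 ± 0.19) the largest decreases, so Lif and its receptor moved in opposite directions. In quadriceps 4 of 33 were higher and 2 lower, against 4.21% and 4.82% of all genes tested. Ngfr (1.44 ± 0.35), Cmtm3 (0.86 ± 0.18) and the MHC class II chaperone Cd74 (0.84 ± 0.11) led the increases, and Cntfr (-1.51 ± 0.18) and Lifr (-0.38 ± 0.11) were lower.

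Signal transducers had smaller median changes in liver than the members. Of 38 NF-kappaB and TNF or IL-1 transducers 19 were higher and 5 lower in liver (median 0.41), against 33.3% and 30.3% of all genes tested. The inhibitors Nfkbie (3.22 ± 0.17) and Tnfaip3 (3.06 ± 0.21) and the IL-1 processing enzyme Casp1 (2.93 ± 0.24) were highest, and the kinase Chuk (-1.14 ± 0.17), Traf4 (-1.10 ± 0.14) and Nfkbib (-0.44 ± 0.13) lowest. In quadriceps 5 of 38 were higher and 1 lower, against 4.21% and 4.82% of all genes tested. Among the higher were Nfkbia (1.04 ± 0.12), Tnfaip3 (1.02 ± 0.26) and Birc3 (0.64 ± 0.16), and Traf3 was lower (-0.49 ± 0.11). Of 25 JAK, STAT and SOCS genes 9 were higher and 2 lower in liver (median 0.20), a share higher that is near the 33.3% of all genes tested. They were led by Stat4 (1.87 ± 0.48), the phosphatase Ptpn6 (1.34 ± 0.16) and Socs5 (1.11 ± 0.16), with Socs7 (-0.47 ± 0.18) and Pias4 (-0.33 ± 0.14) lower. In quadriceps 2 of 24 were higher and 4 lower, against 4.21% and 4.82% of all genes tested. The higher ones were Ptpn6 (1.28 ± 0.33) and Jak3 (0.71 ± 0.17), and the lower ones included Jak2 (-0.76 ± 0.10) and Socs7 (-0.53 ± 0.10). Ptpn6, known as a gene of blood cells, was higher in both tissues. It already stood at 26.75 ± 2.607 CPM in GFP-labelled liver, and any part of blood cells in its differences was not tested.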

How the data were processed

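Per the labels' protocols, QIAzol extracts of frozen bulk tissue were cleaned with DNase treatment, and the Ion Total RNA-Seq kit v2 served for library preparation. FastQC 0.11.5, STAR 2.4.2a, Subread 1.5.0 (featureCounts) and mm10 are named in the submitters' processing notes. How multi-mapped reads and strand were treated in counting is not stated, so overlapping and antisense genes may share reads. Raw counts per gene, as the authors deposited them, were the input. The scaled signal deposited beside them, which the accompanying sheet calls CPM, served only to recover effective library sizes as an alternative scaling. Groups follow the sample titles, and columns were joined to samples by barcode. The labels do not say outright that replicates are separate mice, so p-values may measure technical spread only.

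The test was that of edgeR 4.0.16 under R 4.3.3 (filterByExpr, TMM, robust glmQLFit and glmQLFTest), each tissue alone and the label by tissue interaction over all 16 libraries, with Benjamini-Hochberg adjustment over all genes tested at 0.05. The SE is the size of a log2 fold change over the square root of F. Printed CPM share a single TMM scale over 16 libraries, while fold changes come from the scale of each fit. Intervals on count ratios are exact and, like the floor of 3 counts, cover counting error only, since reads carry no molecular identifiers. Replicate pairs differed beyond sampling noise (chi-square over degrees of freedom 12.2 to 63.7), so none was merged. On simulated counts the test recovered 92% of 2-fold changes in liver, 95% in quadriceps and 50% for the interaction, and 100% of 4-fold changes in each. Each share is over 100 genes and is not that of the members. Recovery at the counts and spread of single members was not tested. In quadriceps the SE reached 0.56 for Tnfrsf11a and 0.45 for Il10ra.

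The members, roles, lists and tests were chosen with earlier results of these data known. Values are given in every library for 3 kinds of member: those called without overlap at a mean of at least 1 CPM, up to the 12 largest in each direction and tissue; those of fixed ligand and receptor pairs; and those called in opposite directions in the 2 tissues. Tnf and Tnfsf11 of those pairs were not analysed here. Results for 1 further member are not reported here beyond its part in the counts. Other members are given by counts and selected values, and pathway lists by counts and the 3 largest changes each way. Exon overlaps were read from GENCODE vM21, and promoters with Python 3.11.15. Alternatives were RLE and upper-quartile factors, the authors' effective library sizes, no filter or a stricter one (1 CPM in 4 libraries), DESeq2 1.42.0, removal of a trend with gene length, a replicate block, and each library left out.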

Additional observations from a re-analysis of the deposited data

Results flagged for a closer look

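Single libraries stood apart from the other 3 of their group in 14 of 140 groups checked among the named members, where chance alone flags about 1 group in 20. In the Yap1S5A-labelled livers this was replicate 1 each time: Csf1r at 386.9 CPM against 531.9 to 555.2 CPM in the other libraries, Tnfsf10 at 6.19 against 3.68 to 4.07 CPM, and Tnfrsf10b at 5.90 against 8.59 to 8.95 CPM. In the GFP-labelled livers it was replicate 3, for Il11ra1 (41.1 against 23.97 to 26.4 CPM) and Il17rc (49.0 against 39.9 to 40.8 CPM). Replicate 4 of the Yap1S5A-labelled quadriceps stood low for Il6st (226.2 against 247.8 to 252 CPM), Il18bp (0.9235 against 1.38 to 1.44 CPM), Tnfsf10 (4.675 against 6.82 to 7.21 CPM) and Il33 (2.54 against 3.89 to 4.13 CPM). Replicate 1 of that group stood high for Il10rb (12.1 against 10.3 to 10.4 CPM) and Il17ra (6.16 against 2.55 to 2.89 CPM), and replicate 2 for Il34 (4.02 against 2.42 to 2.70 CPM). In the GFP-labelled quadriceps replicate 2 was high for Il17rc (4.91 against 4.02 to 4.12 CPM) and replicate 1 for Tnfrsf21 (37.6 against 29.9 to 30.6 CPM).

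The difference between labels itself differed between liver and quadriceps, by the edgeR interaction test, for 22 named members. Many of these were named because of large differences within a tissue, so the count is partly set by that choice. Of all genes tested in both tissues 51% were called. Liver minus quadriceps, on the log2 scale, it was 6.15 for Il1rl2, 5.13 for Ccr2, 4.29 for Tnfrsf11a, 4.04 for Csf1, 3.77 for Cxcr4, 3.08 for Csf1r, 3.03 for Il33, 2.66 for Il10ra, 2.57 for Csf2rb2, 2.51 for Tnfrsf21 and 2.27 for Cx3cl1. Smaller positive values were those of Csf2rb (1.88), Tnfrsf12a (1.85), Il18bp (1.74), Il15 (1.70), Tnfrsf10b (1.57), Il10rb (1.54) and Il6st (0.44). The call for Il6st was lost with RLE factors (0.34, adjusted p = 0.1), the replicate block (0.44, adjusted p = 0.074), the length trend taken out and without any of 8 single libraries (0.25 to 0.43). That for Tnfrsf10b was lost with the length trend taken out (1.25, adjusted p = 0.054), without Yap1S5A-labelled liver replicate 2 (1.38, adjusted p = 0.052) and without GFP-labelled quadriceps replicate 4 (1.30, adjusted p = 0.066). The value was negative for Il1rap (-1.85), Il11ra1 (-0.84), Il17rc (-0.69) and Tnfrsf1a (-0.45). Macrophage and monocyte markers also differed more in liver, for 15 of 18 tested (median 2.56), and their part in these differences was not tested.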

How the results depend on the processing

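Counts of members called kept close to their values in most settings: liver 56 higher (53 to 58 over all settings) and 10 lower (7 to 11), interaction 31 higher (28 to 32), and control tissues 31 higher in liver (27 to 35) and 20 in quadriceps (17 to 25). The quadriceps count of 12 was the least stable, at 6 to 10 with each library left out in turn, 6 with the title number as a replicate block and 12 to 15 in the other settings; 5 of the 12 were among the 6 called under the block, which lost Csf1r, Il10ra, Il10rb, Il13ra1, Tnfrsf1a, Il1rl1 and Ccl24 and added Ccl6. The lower member of quadriceps, Tnfrsf21, was joined by Cxcl14 with DESeq2 (2), with the replicate block (2) and without GFP-labelled replicate 3 (range 1 to 2 over left-out libraries). Members whose liver change was lower than that of quadriceps numbered 4, and 3 to 7 with a library left out (7 without Yap1S5A-labelled liver replicate 1), and 8 with the length trend taken out, which added Il1r1, Ccl9, Cxcl12 and Il13ra1. Sheet IDs shared numbers between liver and quadriceps, so those libraries may come from the same mice. The main interaction and control-tissue tests did not use this pairing. Deviations of libraries with the same title number had correlations of -0.141 to 0.011 in liver and -0.34 to 0.13 in quadriceps. Those of the same sheet ID across tissues had -0.046 to 0.108. Low correlations cannot settle whether libraries were paired. With title numbers as the block, liver had 58 higher and 10 lower. With sheet IDs as the block, the interaction had 30 and 4 and the control tissues 35 and 19.

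Direction turned only for members that were not called, apart from the interaction of Il6st (0.44), which was -0.10 with the length trend taken out. In liver Tnfrsf1a (-0.03) was 0.05 with upper-quartile factors and 0.10 with the length trend taken out, and Tnfsf10 (0.05) was 0 without a filter, -0.29 with the length trend taken out and -0.20 to 0.26 with a library left out. In quadriceps the ranges with a library left out were -0.17 to 1.08 for Tnfrsf11a, -0.31 to 0.07 for Il1rap, -0.52 to 0.22 for Ccl25, -0.19 to 0.01 for Il1r1, -0.30 to 0.02 for Cx3cl1, -0.15 to 0.15 for Cxcl12, -0.06 to 0.25 for Il15, -0.05 to 0.28 for Tnfsf12, -0.22 to 0.50 for Tnfrsf10b and -0.08 to 0.54 for Il17ra. The cause of these shifts was not tested. Upper-quartile factors moved the median of all genes from 0.03 to 0.11 in liver and from 0.03 to -0.17 between control tissues, and the length trend moved it from 0.04 to -0.22 for the interaction. Of the values of single members and counts compared with the reported ones, 2114 kept their side and direction, 81 were weaker, 4 stronger and 21 reversed. Low counts limit Ccl20, Ccl7, Il1rl2 and Il1rl1 in liver, and left 28 members untested in quadriceps.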
